A study of Hydra vulgaris with 32 samples.

Results

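Colchicine, which blocks the assembly of microtubules, was given once to polyps of the freshwater cnidarian Hydra, and the messenger RNA of their body columns was set against that of untreated polyps starved for as long. The comparison uses 7 of the 32 libraries of the series, chosen by their labels: the 3 libraries of the colchicine group and the 4 libraries of the control group of day 11. The colchicine group (replicates A, B and C) received 0.4% colchicine for 8 h and was sampled 9 days after the treatment began, after 11 days without food. The control group (replicates A, B, C and D) was left untreated and sampled on day 11, also after 11 days without food. The other groups used beside them are hydroxyurea (10 mM in 3 periods of 24 h with pauses of 12 h; 3 libraries each on days 4, 5, 7 and 11), heat shock (28 °C for 62 h, day 9 and 11 days without food; 4 libraries) and untreated controls of days 4, 5 and 7 (3 libraries each). The groups share the strain, Sf-1, a mutant whose fast cycling cells are sensitive to heat, so the controls carry that background too. They also share the tissue, the central body column with head and foot regions removed, and polyA RNA libraries. The labels do not say how many polyps went into a library or whether replicates were separate cultures, so the p-values measure the spread between these libraries, which may be technical.

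The body column of Hydra holds an ectodermal and an endodermal layer of epithelial cells and, between them, the interstitial lineage. Interstitial stem cells cycle faster than epithelial cells and give rise to nerve cells, stinging cells (nematocytes), gland cells and germ cells. Colchicine is known in Hydra for removing cells of this lineage, while the epithelial layers survive. The deposited identifiers carry no gene names and none could be matched to the reference table, so the labelled tissue could not be checked against marker genes, no lists of cell type markers or pathways were counted, and changes are described by locus. A locus is the sum of all assembled sequences that share a locus number, 25879 in all, and 15711 of them had enough counts to be tested.

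The libraries were of unequal depth. Colchicine replicate A had 30.8 M counts, B had 15.2 M and C had 13.1 M, against 26.8 to 36.6 M counts in the controls. Colchicine C stood apart beyond its depth: with all libraries thinned to its total it had 14723 loci with a count, B had 17917 and A had 19234, against 18806 to 20154 in the controls. Across loci the log2 levels of controls correlated with each other with Pearson r from 0.979 to 0.988, colchicine A correlated with B with r of 0.959, and C correlated with A and B with r of 0.905 and 0.901. Loci are not independent replicates, so these values only describe the libraries. The first principal component held 68.1% of the variance and had scores of 70.2, 102 and 189 in colchicine A, B and C, against -99.2 to -78.6 in the controls. The second held 21.7% and set colchicine C (-105.5) against A and B (81.8 and 86.6). Among the controls, 1 locus took 17.3% of the counts of replicate C and 11.4% of those of D, but 0.486% and 0.901% in A and B, and library totals were scaled by factors that trim such extreme loci (TMM). Values of colchicine A alone, the deep library, are given beside those of the group for the calls, the sizes of change and the named loci.

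**Figure D1:**
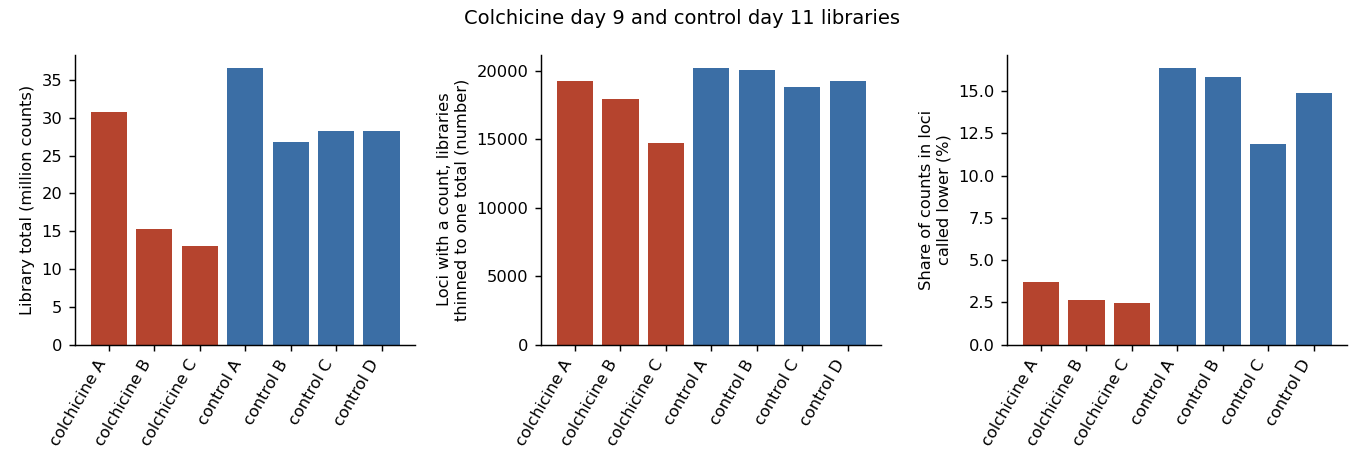
Library total in M counts (left), number of loci with a count after thinning all libraries to one total (middle) and percentage of counts in the loci called lower (right), 1 bar per library, colchicine in red and control in blue. Colchicine B and C are shallow, and C has 14723 loci at equal depth. The loci called lower hold 2.43 to 3.72% of the counts in colchicine libraries and 11.9 to 16.3% in controls.

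Colchicine-treated columns differed from controls in many loci, with deeper losses than gains. Of the 15711 loci tested, 4633 (29.5%) passed an adjusted p of 0.05 (quasi-likelihood test of edgeR, Benjamini-Hochberg adjustment). Higher loci numbered 2235 (14.2%) and lower loci 2398 (15.3%). The lower loci moved further: their median log2 fold change was -2.56, against 0.98 for the higher ones. In bulk tissue, fewer cells of a type and less RNA per cell cannot be told apart, and this holds for every change below. Deviations from the group means correlated weakly between same-lettered colchicine and control libraries (r of 0.187 to 0.290). They did so across letters too: colchicine A with control B (0.215) and colchicine C with control D (0.120), which has no same-lettered colchicine library. With the letter as a replicate block the count was 2616, of which 1070 were higher and 1546 lower. Without single libraries the count ran from 3246 (control D left out) to 6340 (colchicine A left out), and the number called higher fell to 1483 without control D.

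The calls were carried by the deep library as well. Among the lower loci, 2397 of 2398 had colchicine A below all 4 controls, and none had it on the other side of the control mean. Among the higher loci, 2183 of 2235 had colchicine A above all 4 controls, 52 did not, and 4 had it below the control mean. All 3 colchicine libraries were below all 4 controls in 2396 of the lower loci, against 23.3% of all tested loci, and above them in 2153 of the higher loci, against 18.1%. Over all tested loci, colchicine A lay above all controls in 34.5% and below all controls in 37.6%, which is the background of the counts for this library. These are the values the calls were made from, so the counts describe the calls and do not test them. With colchicine A alone against the 4 controls, where the lone library is assumed to vary like the controls, 4850 of 17131 loci (28.3%) were called in edgeR, 2091 higher and 2759 lower. This fit reuses colchicine A and the same 4 controls, so an overlap of its calls with those above is partly built in and does not test them.

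The size of the changes differed between the deep and the shallow libraries, more so for the higher loci. Over the lower loci the median log2 difference from the control mean was -2.10 in colchicine A, -2.47 in B and -2.74 in C. Over the higher loci it was 0.70 in A, 1.02 in B and 1.20 in C. In colchicine A, 1805 of the lower loci (75.3%) were at least 2-fold below the control mean, and 725 of the higher loci (32.4%) at least 2-fold above it. In the mean of B and C these numbers were 1979 (82.5%) and 1286 (57.5%). Colchicine A showed the smaller change in 83.5% of the higher and 63.6% of the lower loci. Losses were deep in every library: in colchicine A, 1238 loci were lower by at least 4-fold, 600 by 16-fold and 261 by 64-fold, whereas 281, 59 and 10 loci were higher by as much.

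**Figure D2:**
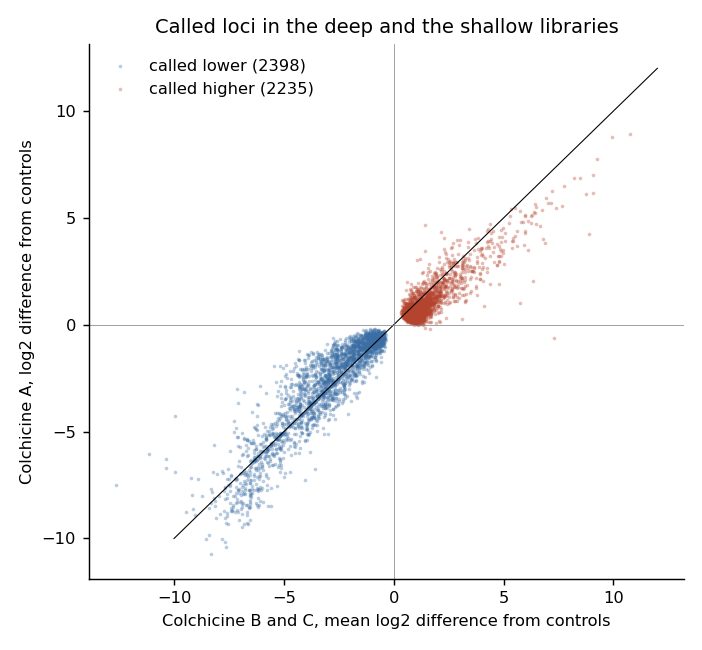
Log2 difference from the control mean in colchicine A (vertical axis) against the mean of colchicine B and C (horizontal axis) for the 2235 loci called higher and the 2398 called lower; the line marks equal values. Most higher loci lie under the line, with medians of 0.70 in A and 1.10 in the mean of B and C.

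The shallow libraries also showed a shift with the level of a locus that colchicine A did not show. Levels are given as CPM, counts per M of the TMM-scaled library total, and are not divided by length. Loci were placed in bands by the mean of the colchicine and control group means, so values of colchicine B and C helped to place them. How much of the shift comes from this placing was not tested. Over the 2688 loci under 1 CPM the median log2 difference from controls was -0.05 in colchicine A, -0.57 in B and -2.39 in C. Over the 162 loci of 1000 CPM or more it was 0.02 in A, 0.69 in B and 1.02 in C. In the controls the medians of all 5 level bands lay between -0.20 and 0.22. The loci called higher were distributed along the same axis, from 1.82% of the loci under 1 CPM to 20.97% at 10 to 100 CPM and 30.2% at 1000 CPM or more, and those called lower from 13.7% to 16.3% and 4.32%. The part of this shift in the calls was not tested beyond the fit of colchicine A alone given above.

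**Figure D3:**
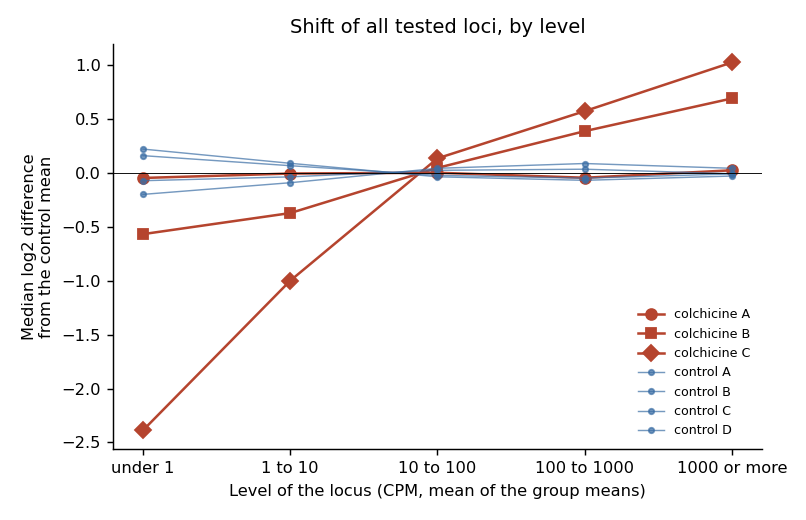
Median log2 difference from the control mean (vertical axis) of all tested loci in 5 bands of level in CPM (horizontal axis), 1 line per library. Bands were set by the mean of the colchicine and control group means. Colchicine A stays between -0.05 and 0.02, whereas colchicine C runs from -2.39 in the lowest band to 1.02 in the highest.

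The called loci took up different parts of the RNA in the groups. Loci called lower held 3.72%, 2.62% and 2.43% of the counts of colchicine A, B and C, against 16.3%, 15.8%, 11.9% and 14.9% in control A, B, C and D. Loci called higher held 34.1%, 36.0% and 37.7% in colchicine A, B and C, against 19.9%, 20.6%, 17.0% and 17.4% in the controls. These shares describe loci that were selected by the same values, so they carry no test.

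Among the most abundant loci, of 1000 CPM or more, 49 were called higher and 7 lower. The 7 had control means of 1289 to 3609 CPM and together held 0.203 to 0.214% of the counts in colchicine libraries and 1.41 to 2.10% in controls. Their median log2 difference in colchicine A was -5.11, and 6 of the 7 were at least 2-fold lower there. The 49 held 14.3% of the counts of colchicine A, 15.4% of B and 17.1% of C, against 6.95 to 8.49% in controls, and 14 of them were at least 2-fold higher in colchicine A.

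Some loci fell to the lower limit of what was measured. In 75 loci all 3 colchicine libraries were at or under 3 counts while every control had at least 5 CPM, with a median of 12.1 CPM over control means and a highest mean of 55.9 CPM. All 75 were called lower, and 5 of them had 0 counts in all 3 colchicine libraries. Each of the 13 control libraries of the series had at least 1 CPM in all 75 loci, which the choice already set for the 4 of day 11. Of the 75, 45 were also at or under 3 counts in all 3 hydroxyurea day 11 libraries, and 0 in all 4 heat shock libraries. The limit set by 3 counts was 0.0831 CPM in colchicine A, 0.224 in B and 0.305 in C, against 0.0691 to 0.116 CPM in the controls. It covers counting error only. The reverse, at or under 3 counts in all 4 controls and at least 5 CPM in all 3 colchicine libraries, was met by 3 loci, all called higher. With colchicine A as the only treated library, 110 loci were at or under the limit and 3 met the reverse.

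In each direction, 2 loci are described one by one, among 1010 lower and 500 higher loci that met the conditions for naming. They are the one with the strongest change in its weakest colchicine library and the one with the largest change in mean CPM. The conditions include every colchicine library lying beyond every control of day 11. The separation of these groups in the named loci was therefore fixed by the choice and is only described. The lower locus loc04261 had 0.332, 0.299 and 0.305 CPM in colchicine A, B and C, against 160, 279, 191 and 172 CPM in control A, B, C and D. These colchicine values rest on 12, 4 and 3 counts. The groups were far apart, and at so few counts the spread between the colchicine libraries cannot be told apart from counting error. The mean was 0.312 ± 0.0180 CPM (SD, n = 3) against 201 ± 53.9 CPM in controls (SD, n = 4). The log2 fold change was -9.28 ± 0.35 (SE), with an adjusted p of 7.37e-07 in edgeR, and -9.20 with colchicine A alone. Its main sequence of 6 held 89.7% of the counts.

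For values across the series, CPM were scaled over all 32 libraries. Hydroxyurea-treated polyps had a mean of 1.70 ± 1.53 CPM of loc04261 at day 4 and 0.280 ± 0.228 at day 11, each over 3 libraries (± SD). Its level in untreated polyps varied by day: 395 ± 39.1 CPM (day 4), 178 ± 61.0 (day 5), 63.7 ± 21.5 (day 7, 3 libraries each) and 206 ± 53.8 (day 11, 4 libraries). After heat shock it had 3.94 ± 5.06 CPM (SD, n = 4). Every treated library, whatever the treatment, was below every control library of the series.

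The lower locus loc11404 had the largest drop in mean CPM. It had 9.81, 33.7 and 162 CPM in colchicine A, B and C, against 3087, 2882, 3583 and 4884 CPM in control A, B, C and D. The colchicine libraries differed widely among themselves, with the deep library lowest, and all 3 were below every control. The mean was 68.5 ± 81.9 CPM (SD, n = 3) after colchicine and 3609 ± 899 CPM in controls (SD, n = 4), a log2 fold change of -5.73 ± 0.98 (SE) with an adjusted p of 0.00309 in edgeR. It was -8.51 with colchicine A alone. After hydroxyurea its mean was 1007 CPM (day 4), 410 CPM (day 5), 2.96 CPM (day 7) and 3.49 CPM (day 11). After heat shock it had 157 ± 242 CPM (SD, n = 4). Colchicine and hydroxyurea day 11 were set against each other directly, and the log2 fold change of 4.26 did not pass the threshold in edgeR (adjusted p = 0.0779), whereas without colchicine A (4.78, adjusted p = 0.0234) or C (2.65, adjusted p = 0.0342) it did. Over 14 alternatives its adjusted p ran from 0.00133 to 0.362.

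The higher locus loc09751 was nearly silent in untreated polyps. It had 97.4, 221 and 560 CPM in colchicine A, B and C, against 0.0691, 0.0956, 0.116 and 0.281 CPM in control A, B, C and D. The control values rest on 3, 3, 3 and 8 counts. The groups did not overlap, as naming required, and the deep library showed the smallest of the 3 colchicine values. The log2 fold change was 11.04 ± 0.80 (SE), with an adjusted p of 1.87e-05 in edgeR, and 9.51 with colchicine A alone. Hydroxyurea libraries had 7.51 ± 2.86 CPM (day 4), 10.6 ± 4.71 (day 5), 20.2 ± 6.23 (day 7) and 52.5 ± 30.6 (day 11), each a mean ± SD over 3 libraries. After heat shock the locus had 4.04 ± 4.11 CPM (SD, n = 4), and colchicine was higher than heat shock by 6.17 on the log2 scale (adjusted p = 0.0108 in edgeR). Without heat shock D that difference did not pass the threshold (6.07, adjusted p = 0.0532), and over its 15 alternatives the adjusted p ran from 3.06e-09 to 0.295. Against hydroxyurea day 11 the log2 difference was 2.47 (adjusted p = 0.121 in edgeR), and without colchicine A it was 2.89 (adjusted p = 0.0483, within a range of 0.00134 to 0.345 over 14 alternatives).

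The higher locus loc03947 was abundant in both groups. It had 3781, 6963 and 8540 CPM in colchicine A, B and C, against 414, 762, 705 and 860 CPM in control A, B, C and D. The lowest colchicine library, the deep one, was above the highest control. Means were 6428 ± 2424 CPM (SD, n = 3) after colchicine and 685 ± 192 CPM in controls (SD, n = 4), a 9.38-fold rise, with a log2 fold change of 3.23 ± 0.35 (SE) and an adjusted p of 0.000155 in edgeR. Of its 5 sequences, 1 held 99.8% of the counts. The locus was also high in the other treatments, at 2905 ± 564 CPM over the 4 heat shock libraries and 4497 ± 756 CPM over the 3 hydroxyurea libraries of day 11 (mean ± SD). Direct tests of colchicine against heat shock (log2 difference 1.16, adjusted p = 0.0594) and against hydroxyurea (0.51, adjusted p = 0.456) did not pass the threshold in edgeR, although without colchicine A the difference from heat shock did (1.42, adjusted p = 0.0100, within a range of 0.000709 to 0.214 over 15 alternatives). With colchicine A alone the log2 fold change against controls was 2.48.

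**Figure D4:**
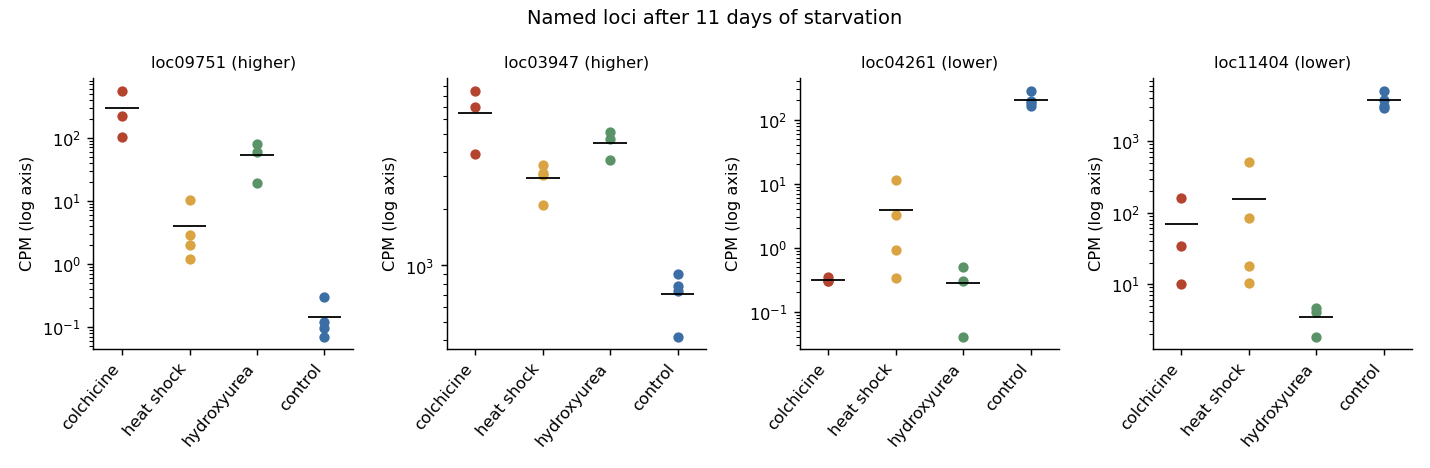
CPM (log axis, scaled over all 32 libraries) of the 4 named loci in the groups starved for 11 days; points are libraries and lines are means. In each panel the 3 colchicine libraries lie beyond all 4 control libraries, which was a condition for naming. Among the 4 named loci, the colchicine libraries spread most on the log axis in loc11404 and loc09751. In both of these loci the heat shock libraries spread wider still on that axis.

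By the size of the change in the weakest colchicine library, loc04261 and loc09751 led 20 loci in each direction. The 20 leading lower loci had control means of 13.1 to 534 CPM and colchicine means of 0 to 1.80 CPM, and the weakest of their colchicine libraries was at a log2 difference of -7.46 or less from the control mean. The 20 leading higher loci had colchicine means of 11.9 to 3453 CPM and control means of 0.00797 to 48.5 CPM, with the weakest library higher by at least 5.21. Of these loci 9 and 10 consist of a single sequence, against 4761 of the 15711 loci tested.

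Libraries outside the fit were used to see whether the calls depend on the 4 control libraries of day 11. Of the 2398 lower loci, 2285 (95.3%) had all 3 colchicine libraries below all 9 control libraries of days 4, 5 and 7, against 21.2% of all tested loci. Of the 2235 higher loci, 1843 (82.5%) had them above all 9, against 13.8% of all tested loci. These libraries were starved for 4 to 7 days and not for 11, and the colchicine libraries are the same as in the fit. In all 13 control libraries the median log2 difference from the control day 11 mean lay between -0.09 and 0.10 for the lower loci and between -0.10 and 0.14 for the higher ones.

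Hydroxyurea, an inhibitor of DNA synthesis given at 10 mM in 3 periods of 24 h, offers a comparison with no library in common on days 4, 5 and 7, where treated polyps have controls of their own day. On day 7, 1620 of the 2398 loci lower after colchicine (67.6%) had all 3 hydroxyurea libraries below all 3 controls, against 25.3% of all tested loci. They made up 40.8% of the 3975 tested loci that hydroxyurea placed there. For the higher loci the number was 1510 of 2235 (67.6%), against 23.5% of all tested loci, and they were 40.9% of 3695. On day 4 the shares were 56.8% of the lower loci, against 22.4% of all tested loci, and 50.1% of the higher loci, against 18.0% of all tested loci. On day 5 they were 58.9% against 23.8%, and 53.8% against 21.1%.

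Sizes were set side by side for loci selected by a large change in colchicine A. A smaller change in another treatment is partly built into that choice, so the counts do not test a difference in size. Of the 1238 loci lower by at least 4-fold in colchicine A, 624 (50.4%) were lower by at least 4-fold after hydroxyurea on day 7 as well, against 4.37% of all tested loci. In 260 (21.0%) hydroxyurea stayed within 0.5 of its controls on the log2 scale, against 67.1% of all tested loci. Of the 1238, 90 were higher by 0.5 or more, against 16.4% of all tested loci. Of the 281 loci higher by at least 4-fold in colchicine A, 139 (49.5%) were also higher by at least 4-fold after hydroxyurea, against 1.30% of all tested loci. Of the 281, 32 (11.4%) stayed within 0.5, and 16 were lower by 0.5 or more, against 16.5% of all tested loci.

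The groups starved for 11 days were also set side by side. Over the loci lower after colchicine, the median log2 difference from the control day 11 mean was -2.81 to -2.12 in the colchicine libraries, -1.07 to -0.73 in the 4 heat shock libraries and -0.93 to -0.67 in the 3 hydroxyurea day 11 libraries. Over the loci higher after colchicine it was 0.71 to 1.15 in colchicine, 0.35 to 0.50 after heat shock and 0.40 to 0.53 after hydroxyurea. The loci were selected on the colchicine values and all these differences use the same control libraries, so they are given side by side without a test.

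**Figure D5:**
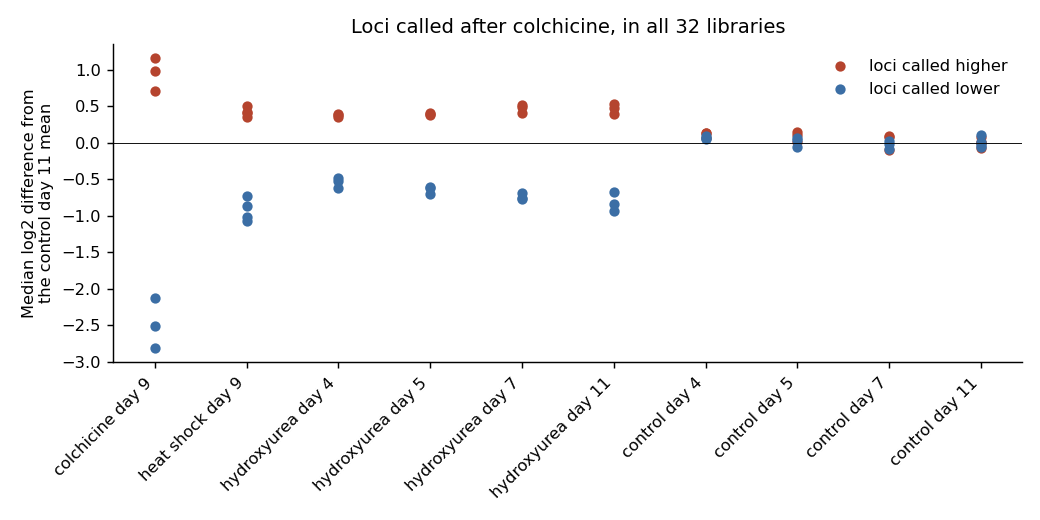
Median log2 difference from the control day 11 mean of the loci called higher (red) and lower (blue) after colchicine, 1 pair of points for each of the 32 libraries, by group. Colchicine libraries reach -2.81 for the lower loci, heat shock and hydroxyurea libraries lie between -1.07 and -0.48, and control libraries lie between -0.09 and 0.10.

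The difference between treatments was tested directly at 11 days of starvation. Colchicine differed from hydroxyurea day 11 in 693 of 14825 loci (4.67%) in edgeR, of which 227 were higher (1.53%) and 466 lower (3.14%) after colchicine. The 466 had a median over locus means of 2.41 CPM in colchicine and 21.7 CPM in hydroxyurea libraries, and 19.4 CPM in the controls, and their median log2 difference from the hydroxyurea mean was -3.25 in colchicine A, -3.15 in B and -3.34 in C. In all 466, colchicine A was below all 3 hydroxyurea libraries, against 34.6% of all loci in this comparison. The 227 higher loci had medians of 47.0 CPM in colchicine, 18.9 CPM in hydroxyurea and 17.0 CPM in control libraries, and in all 227 colchicine A was above every hydroxyurea library, against 35.3% of all loci. The calls were made from these same values, so the counts for colchicine A describe the lists and do not test them, here and for heat shock.

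Colchicine differed from heat shock in 1123 of 15221 loci (7.38%), 440 higher (2.89%) and 683 lower (4.49%) after colchicine. Heat shock here was a period of 62 h at 28 °C, sampled on the same day as colchicine. The 683 lower loci had medians of 2.54 CPM in colchicine, 15.4 CPM in heat shock and 15.9 CPM in control libraries, and the 440 higher ones had 48.8, 23.7 and 23.8 CPM. Colchicine A was below all 4 heat shock libraries in 681 of the 683, against 28.8% of all loci in this comparison, and above them in 439 of the 440, against 31.2%. The sizes of both lists depended strongly on single libraries and on the fit. Against hydroxyurea the count was 204, 251 and 211 without hydroxyurea A, B or C, and 1922, 349 and 1321 without colchicine A, B or C. Against heat shock it was 952, 505, 510 and 458 without heat shock A, B, C or D, and 2385, 646 and 1490 without colchicine A, B or C. Without colchicine A the balance of directions turned, with 1054 higher and 868 lower loci against hydroxyurea and 1321 higher and 1064 lower against heat shock. With DESeq2, another test of counts, it also turned against hydroxyurea (912 higher, 884 lower) but not against heat shock (1117 higher, 1165 lower).

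Sums per locus and single sequences did not always give the same calls. In single sequences 6332 of 31945 were called, 2674 higher and 3658 lower. Of the 1203 lower loci with at least 2 tested sequences, 326 had all of them called lower 20 had sequences called in both directions and 163 had none called. Of the 1363 higher ones, 140 had all sequences called higher, 48 had both directions and 258 had none called. Among 4920 loci that were not called in their sum, 620 (12.6%) had at least 1 called sequence and 50 had sequences called in both directions.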

How the data were processed

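The authors deposited estimated counts per assembled sequence, as whole numbers, for 32 libraries. The submitters' processing notes list cutadapt 1.11, Salmon 0.7.2 and DESeq2 without roles, and Salmon estimates counts, which may split reads among similar sequences. The sequence set and the use of strand are not given in the sources used here. A table of scaled counts was not used. Rows with the same locus number were summed. No identifier matched the 28925 genes of the assembly HydraT2T_AEP.

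The test for the 7 libraries was that of edgeR 4.0.16, run under R 4.3.3 (quasi-likelihood F-test, robust, TMM, filterByExpr with a minimum of 10 counts), with Benjamini-Hochberg adjustment over all loci tested and a threshold of 0.05. The fit was tested on simulated data. SEs were derived from the F statistic. Log2 levels use a prior count of 2. Tested loci held 99.9% or more of each library's counts. Floors of 3 counts cover counting error only.

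Named loci were called, had a mean of at least 5 CPM, had all colchicine libraries beyond all controls, and had colchicine A at least 2-fold from the control mean. In each direction the locus with the largest weakest change and the one with the largest change in mean CPM were taken. The contrast, the rules and the tests were chosen with earlier results of these data known. No library repeated another: the chi-square per degree of freedom over loci was 15.1 or more.

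The main fits took no account of the replicate letters of the titles, and the replicate block, an alternative, read them as pairs. Deviations of same-lettered colchicine and control libraries from their group means correlated across loci with r of 0.200 (A), 0.187 (B) and 0.290 (C). Colchicine A correlated slightly more with control B (0.215), whereas B and C correlated best with their own letter. Colchicine B also correlated with control A (0.0999) and C with control D (0.120), so the pattern was not particular to the letters. With hydroxyurea day 11 and heat shock, the B pair had r of -0.09 and -0.12, and the replicate block was run there too. Alternatives were DESeq2 1.42.0, limma 3.58.1 (voom with library quality weights), other scaling, filters, libraries and depths. The fit of colchicine A alone was added after the data were seen.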

Additional observations from a re-analysis of the deposited data

Results flagged for a closer look

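Among 11 measures compared over the 4 control libraries, 1 library stood far from the others by Dixon's ratio, where chance gives about 0.55. Control replicate A had 36.6 M counts, and the other 3 controls had 26.8 to 28.3 M. Without this library 3290 loci were called after colchicine.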

How the results depend on the processing

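Against control, the 4 named loci kept their direction and their calls in all 68 values recomputed, with adjusted p of at most 0.0166. These 4 loci were chosen as extreme cases from the same libraries, so their values do not test the other calls. For colchicine against control the count of 4633 loci became 8084 when all 32 libraries were fitted, 8160 with all 13 controls as 1 group and 2616 with the replicate block. Leaving out 1 library gave 3246 to 6340 loci and medians of all log2 fold changes of -0.19 to -0.04 (-0.10 with all 7). DESeq2, voom, other scaling, other filters and equal depth gave 4289 to 5483. The cause of the larger counts was not tested, but those fits estimate the spread from more libraries, and the median SD of log2 levels was 0.52 in colchicine and 0.18 in control libraries.

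Against hydroxyurea the count of 693 became 1796 with DESeq2 (912 higher, 884 lower) and 1905 with voom (884 higher, 1021 lower). It was 4866 with all 32 libraries and 204 to 1922 without 1 library. Against heat shock the count of 1123 became 2282 with DESeq2, 5440 with all 32 libraries, 308 with the replicate block and 458 to 2385 without 1 library. The replicate block changed no call of a named locus against control, and against hydroxyurea it gave 596. Of 101 direct differences of named loci recomputed against hydroxyurea or heat shock, 83 kept their direction and side of the threshold, 15 passed it in an alternative only, 2 lost the call and 1 reversed. With the replicate block loc09751 lost its call against heat shock (adjusted p = 0.295) and gained one against hydroxyurea (0.0129). The log2 difference of loc11404 against heat shock, not called (-1.17), ran from -2.84 to 0.88 without 1 library, reversing without heat shock B. The cause of these moves was not tested. Depth limits what is seen of low loci in colchicine B and C, where 3 counts are 0.224 and 0.305 CPM.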
